A study of Mus musculus with 6 samples.

Results

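Ngfr, which encodes the p75 neurotrophin receptor, was examined in embryonic mouse kidney together with neurotrophins and their other receptors: the ligand genes Bdnf and Ntf3, the Trk receptor genes Ntrk2 and Ntrk3, and the sorting receptor gene Sort1. The 6 genes were chosen by name, from results of the comparison described here, and 5 of them were analysed, as 5 of the 13965 rows of the expression table. Bdnf was not analysed here. Whole kidneys taken at embryonic day 16 gave 3 control and 3 mutant RNA-seq libraries. Control kidneys were labelled wild type with 1 floxed copy of the miR-17~92 microRNA cluster (flx/+), and mutant kidneys carried the Six2-TGC transgene and 2 floxed copies (flx/flx). Six2-TGC drives a Cre recombinase from Six2 regulatory sequence in nephron progenitors, so the cluster is removed there and in the cells that descend from them, while other kidney cells keep it. Kidneys of both groups therefore carried at least 1 floxed copy, and the transgene and the loss of the cluster cannot be told apart, since only the mutants had either. The labels name 3 litters, each with a kidney library of either genotype, and n = 3 below means these litters.

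Neurotrophins are secreted growth factors that are made as longer precursors and cut to their mature form. The mature factors signal through the Trk receptor kinases, brain-derived neurotrophic factor and neurotrophin-4 through TrkB (Ntrk2) and neurotrophin-3 mainly through TrkC (Ntrk3). The p75 receptor has no kinase of its own, binds every mature neurotrophin, and together with sortilin (Sort1) binds the uncut precursors. In the developing kidney, p75 is best known from mesenchymal cells and from the nerves that grow in along the vessels, where neurotrophins keep neurons alive.

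The mature microRNAs of the cluster are shown first, because microRNAs lower a transcript by pairing their seed mostly with its 3' untranslated region. Sequences are from RefSeq (GRCm38.p6, chromosome 14, plus strand), written 5' to 3' with the seed, bases 2 to 8, in capitals.
mmu-miR-17-5p: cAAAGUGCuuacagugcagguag
mmu-miR-20a-5p: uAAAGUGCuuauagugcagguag
mmu-miR-18a-5p: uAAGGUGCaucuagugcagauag
mmu-miR-19a-3p: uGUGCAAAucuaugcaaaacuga
mmu-miR-19b-3p: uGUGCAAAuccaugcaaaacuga
mmu-miR-92a-3p: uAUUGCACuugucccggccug
miR-17 and miR-20a share a seed, as do miR-19a and miR-19b, so the 6 microRNAs fall into 4 seed families.

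Matches to these seeds were searched on the transcript's own strand only, as GCACTTT for the miR-17 and miR-20a seed, as GCACCTT for miR-18a, as TTTGCAC for miR-19 and as GTGCAAT for miR-92a. They were counted in the longest annotated 3' untranslated region of each gene. Ngfr had 0 in its 1985 bases, where 42.5% of 2649 genes with an untranslated region of similar length (within 25%) had at least 1. Sort1 had 0 in 4268 bases (69.3% of 1422 such genes had one) and Ntf3 had 0 in 314 bases (7.23% of 1190). The genes of similar length include the gene itself. Over all 13523 genes of the table with an annotated region, 33.7% held at least 1 match.

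Ntrk2 and Ntrk3 were the members with matches, 2 in 5617 bases and 5 in 16600 bases. Regions of these lengths usually hold one: 77.7% of 783 genes near the length of Ntrk2 did, and all 13 near the length of Ntrk3. Both counts include the gene itself. Printed below are the 2 matches of Ntrk2 and, of those of Ntrk3, the 3 that are followed by an A. The match is in capitals (GRCm38, Ntrk2 on the plus and Ntrk3 on the minus strand).
Ntrk2, miR-18a, chr13:59129158-59129187: catgttcggctctgtcccccaaGCACCTTt
Ntrk2, miR-92a, chr13:59131864-59131893: taatagaataattataagtaggGTGCAATa
Ntrk3, miR-18a, chr7:78187669-78187698: gtttcagtttgggattctcttgGCACCTTa
Ntrk3, miR-19, chr7:78183545-78183574: attagcgccccatcagtttgttTTTGCACa
Ntrk3, miR-19, chr7:78180572-78180601: attgataccagtacaaaaaaagTTTGCACa
A match is a run of letters and not a shown binding site, and its absence says only that these letters are not in the annotated region.

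Ngfr was the member with the largest difference, and it was lower in the mutant kidney of every litter. The gene lies on the minus strand at chr11:95568818-95587735 (GRCm38). Its level in CPM, the reads of a gene scaled to a common library total, was 19.3, 25.1 and 26.2 in the control libraries of litters 1, 2 and 3, and 11.8, 16.8 and 16.1 in the mutant libraries. All 3 control libraries lay above all 3 mutant libraries, and the litter 1 libraries were the lowest of each group. The means were 23.5 ± 3.68 CPM (SD, n = 3) in control and 14.9 ± 2.74 CPM (SD, n = 3) in mutant kidneys, a change of the mean of -36.6%. Between 569 and 1296 reads, a number recovered from the CPM values, stood behind each value.

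On the scale of log2(CPM + 0.5), the mutant-minus-control difference of Ngfr was -0.69, -0.56 and -0.68 in the 3 litters. Fitted with litter as a block by limma over all 13766 rows tested, it was -0.65 (SE 0.075, 95% interval -0.82 to -0.47), with a Benjamini-Hochberg adjusted p of 0.00294. With genotype alone, the same difference had an SE of 0.16 and an adjusted p of 0.129 by limma, so with all 6 libraries Ngfr passed the threshold of 0.05 in the paired fits and not with genotype alone. Because the genes were chosen with this contrast known, these values describe Ngfr and are no independent test. In the paired fit, 1 of the 5 members was called lower, where 3.51% of all rows were, and 1 was called higher (Sort1), where 7.93% of all rows were. In either direction 11.4% of rows were called, and 0.559% with genotype alone. Ngfr ranked 53 by size among the 483 rows called lower, whose median difference was -0.23.

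Ntf3 encodes neurotrophin-3, the ligand of TrkC, and stood, per length of exon, at a higher level than Ntf5, the gene of neurotrophin-4. It lies at chr6:126101412-126166910 on the minus strand. Control libraries of litters 1 to 3 had 6.85, 6.32 and 6.53 CPM, and mutant libraries 6.27, 5.85 and 5.51 CPM. The groups did not overlap, but the gap between the lowest control and the highest mutant library was small. Means were 6.56 ± 0.268 in control and 5.87 ± 0.384 CPM in mutant kidneys (SD, n = 3). The paired difference of -0.15 (SE 0.10, 95% interval -0.38 to 0.09) did not pass the threshold (limma, adjusted p = 0.371). Ngfr and Ntf3 were thus the 2 of 5 members with every mutant library below every control library, an arrangement found in 7.12% of all rows.

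Ntf5, neurotrophin-4, was close to the limit of what the table lists, since its lowest row averaged 0.834 CPM. Control libraries had 0.913, 1.25 and 1.21 CPM and mutant libraries 1.20, 1.84 and 1.18 CPM, with 40 to 101 recovered reads behind each value. The mutant was above its control in litters 1 and 2 and level with it in litter 3, and the groups overlapped. The paired difference was 0.22 (SE 0.17, limma adjusted p = 0.415).

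**Figure D1:**
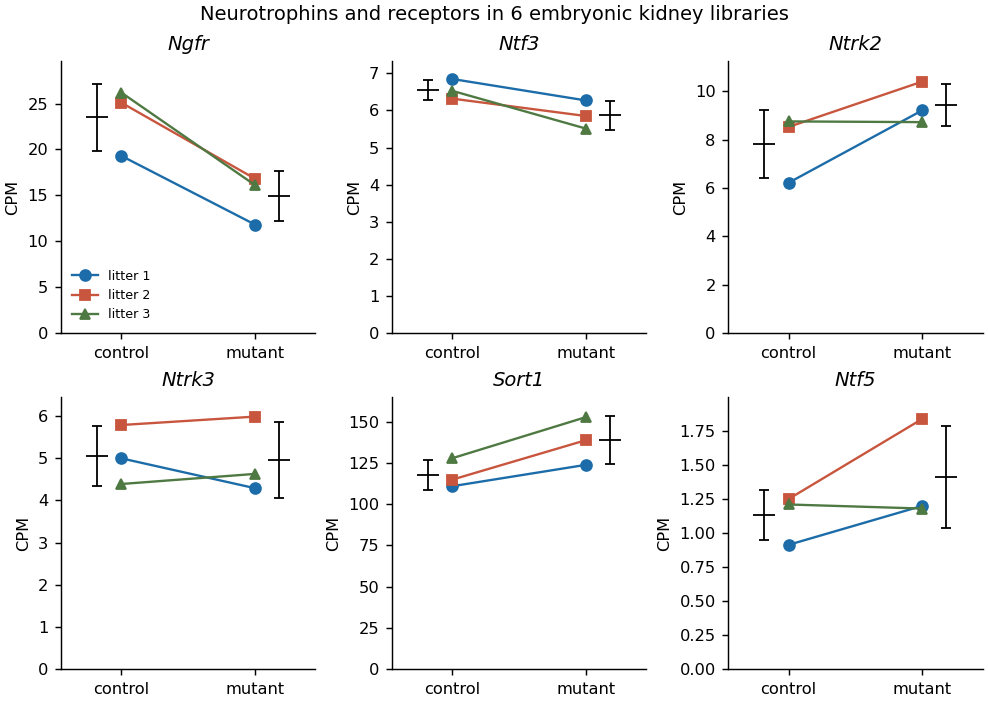
CPM of 5 members and of Ntf5 in each library, with lines joining the control and mutant kidney of a litter and black bars giving mean ± SD (n = 3) per group; each vertical axis starts at 0. Ngfr falls along all 3 lines, from 19.3 to 26.2 CPM in controls to 11.8 to 16.8 CPM in mutants, whereas the lines of Ntrk3 run in both directions.

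Ntrk2, the gene of TrkB (chr13:58806569-59133970, plus strand), had a higher mutant mean, carried by litters 1 and 2. Control libraries had 6.21, 8.52 and 8.75 CPM and mutant libraries 9.21, 10.4 and 8.72 CPM. The mutant library of litter 3 was level with its control, and the low value stood in the control of litter 1. Means were 7.83 ± 1.41 and 9.44 ± 0.863 CPM (SD, n = 3), with a paired difference of 0.27 (SE 0.12, 95% interval -0.01 to 0.54) that was not called (limma, adjusted p = 0.180). Without litter 3 it was 0.40 with an adjusted p of 0.0409 by limma. With each library's trend on transcript length and GC content removed, it was 0.08 (adjusted p = 0.727).

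Ntrk3, the gene of TrkC (chr7:78175959-78738012, minus strand), showed no direction. Control libraries had 5.0, 5.79 and 4.39 CPM and mutant libraries 4.29, 5.99 and 4.63 CPM. The mutant was lower in litter 1 and slightly higher in litters 2 and 3, and the spread between litters exceeded the difference between genotypes. The paired difference was -0.03 (SE 0.12, 95% interval -0.29 to 0.24, limma adjusted p = 0.898), and -0.27 with the length and GC trend removed (adjusted p = 0.176). Ntrk2 and Ntrk3 each make a full-length kinase and truncated forms without one, and these forms cannot be told apart in a table with 1 value per gene.

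The paired 95% intervals of both Trk receptor genes, -0.01 to 0.54 for Ntrk2 and -0.29 to 0.24 for Ntrk3, lay above the upper bound of -0.47 for Ngfr. With the length and GC trend removed, the interval of Ntrk3 (-0.52 to -0.02) met that of Ngfr (-0.82 to -0.50). The differences between these genes were not themselves tested.

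Sort1 encodes sortilin, which carries proteins between the Golgi and endosomes and is the partner of p75 for uncut neurotrophins. It lies at chr3:108284082-108361511 on the plus strand, and 4.47% of its exon bases are shared with the antisense gene Gm12523. Control libraries had 111, 115 and 128 CPM and mutant libraries 124, 139 and 153 CPM. Each mutant was above the control of its litter, while the groups overlapped because the litter 3 control exceeded the litter 1 mutant. Means were 118 ± 9.13 and 139 ± 14.5 CPM (SD, n = 3).

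The paired difference of Sort1 was 0.23 (SE 0.0455, 95% interval 0.12 to 0.33), with an adjusted p of 0.0197 by limma. It was lost with genotype alone (adjusted p = 0.427), without litter 1 (0.26, adjusted p = 0.0769), and with the length and GC trend removed (0.07, adjusted p = 0.310). Under the last of these, 6.59% of 13517 rows were called in either direction, and Ngfr was at -0.66 (adjusted p = 0.00289). Ngfr thus kept its size when the trend was removed and Sort1 did not.

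**Figure D2:**
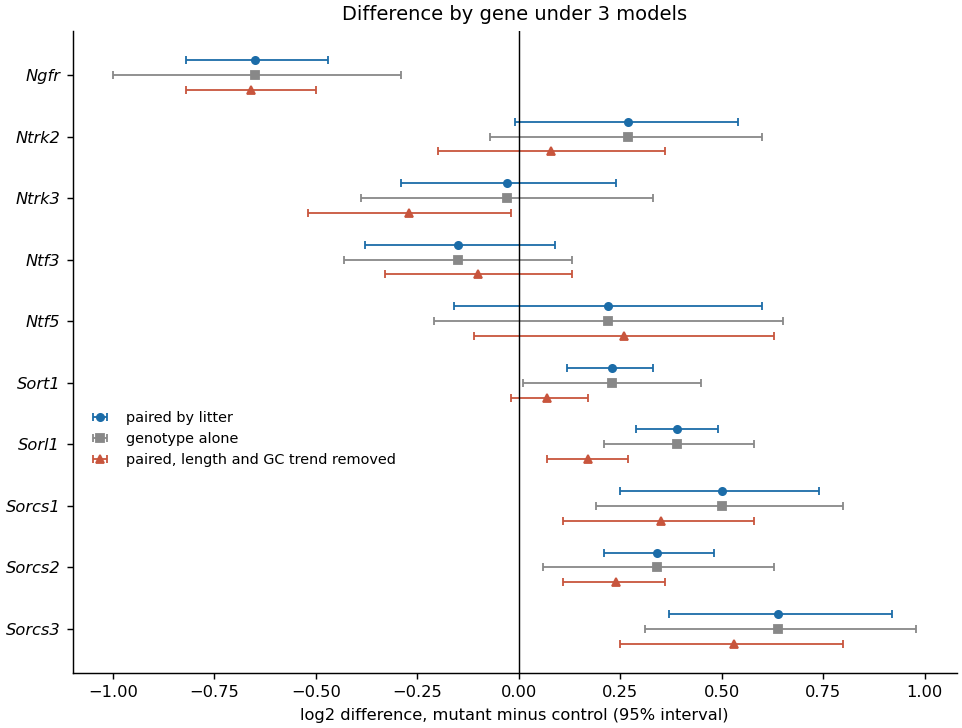
Log2 differences, mutant minus control, of the neurotrophin and receptor genes and the 4 relatives of Sort1, with 95% intervals from limma paired by litter, with genotype alone, and paired with each library's length and GC trend removed. Ngfr is the gene whose 3 intervals all lie below 0, and the point for Sort1 moves from 0.23 to 0.07 when the trend is removed.

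Levels can be set between genes only per length, and here CPM was divided by the kilobases of all annotated exons of a gene. In control kidneys Sort1 was highest at 15.6 ± 1.21 CPM per kilobase, followed by Ngfr at 6.83 ± 1.07 and Ntf3 at 3.83 ± 0.156 (SD, n = 3). Then came Ntf5 at 0.424 ± 0.0696, Ntrk2 at 0.406 ± 0.0729 and Ntrk3 at 0.168 ± 0.0234 CPM per kilobase. Only the neighbours Ntf5 and Ntrk2 overlapped between control libraries. Ntrk2 and Ntrk3 have many alternative exons, and with the longest transcript as the length, Ntrk2 came to 0.895 CPM per kilobase, above Ntf5 at 0.573.

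In mutant kidneys the order was the same, with Ngfr nearer to Ntf3. Ngfr stood at 4.33 ± 0.796 and Ntf3 at 3.43 ± 0.224 CPM per kilobase (SD, n = 3), against 18.3 ± 1.92 for Sort1. In the mutant of litter 1, Ngfr (3.42 CPM per kilobase) was below Ntf3 (3.66). In those of litters 2 and 3 it stayed above, at 4.89 against 3.41 and 4.68 against 3.21, as it did in every control library.

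Because p75 acts beside its partners, the balance between them was described as a ratio of levels per kilobase within each library. Ngfr over Sort1 was 0.383, 0.479 and 0.448 in control and 0.209, 0.266 and 0.232 in mutant libraries, a log2 change of -0.87, -0.85 and -0.95 in the 3 litters. Ngfr over Ntrk2 was 17.4, 16.5 and 16.8 in control and 7.16, 9.07 and 10.4 in mutant libraries, a log2 change of -1.28, -0.86 and -0.69. Both ratios were lower in every mutant library than in any control library, and they combine a lower Ngfr with higher mean values of its partner. Ngfr over Ntrk3, with means of 41.4 ± 9.69 and 26.4 ± 3.58 (SD, n = 3), changed by -0.49, -0.62 and -0.78, about as Ngfr alone did. It too was lower in every mutant library (24.1 to 30.5) than in any control library (33.9 to 52.3). The size of these ratios depends on the length used. Per kilobase of the longest transcript, Ngfr over Ntrk2 averaged 7.66 in control and 4.02 in mutant kidneys, and Ngfr over Ntrk3 27 and 17.2. Their log2 changes cannot depend on it, because a fixed length cancels in them. The ratios were not computed with the length and GC trend removed. In that paired fit the differences were -0.66 for Ngfr, 0.07 for Sort1, 0.08 for Ntrk2 and -0.27 for Ntrk3. These ratios describe genes chosen on this contrast, and RNA from different cell types enters the same ratio.

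Beyond the members, 7 lists of neurotrophin pathway genes held 74 genes, of which 67 were tested. In the paired fit, 11 were called higher and 1 lower, 17.9% against 11.4% of all rows, with a median difference of 0.04 against 0.012 over all rows. With genotype alone, limma called 0 of them in either direction, and with the length and GC trend removed 5 were higher and 0 lower. The lists were chosen with earlier results of these libraries known, and nothing is claimed for them as sets.

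The relatives of Sort1 were the list in which every gene was called. These sorting receptors share the VPS10 domain of sortilin, and SorCS2 also binds uncut neurotrophins together with p75. All 4 rose, where 7.93% of all rows did, with a median difference of 0.44. Sorcs3 had 4.09, 3.50 and 2.91 CPM in control and 6.09, 5.43 and 5.61 CPM in mutant libraries (0.64, SE 0.12, limma adjusted p = 0.0158). Sorcs1 went from 9.67 ± 1.33 to 13.8 ± 1.55 CPM (0.50, SE 0.11, adjusted p = 0.0248).

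For Sorl1, the sorting receptor SorLA, control libraries had 73.7, 79.2 and 77.3 CPM and mutant libraries 96.1, 105 and 101 CPM (0.39, SE 0.0455, limma adjusted p = 0.00294). Sorcs2 went from 38.0 ± 4.22 to 48.5 ± 7.59 CPM (0.34, SE 0.058, adjusted p = 0.0112). For each of these 4 genes the mutant libraries lay above the control libraries without overlap. The share of all rows arranged in this way was not counted. Calls of these 4 genes depended on the fit. With genotype alone 0 passed, with the length and GC trend removed 2 (Sorcs2 and Sorcs3), and without litter 1 only 1 (Sorl1).

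Among 7 tested co-receptors and relatives of p75, 3 rose and 0 fell, where 7.93% and 3.51% of all rows did. The median difference was 0.18. Tnfrsf19 (TROY), which can stand in for p75 in the Nogo receptor complex, went from 20.8 ± 3.01 to 27.5 ± 1.44 CPM (0.41, limma adjusted p = 0.0278). Tnfrsf21, death receptor 6, went from 51.4 ± 4.13 to 61.5 ± 2.75 CPM (0.26, adjusted p = 0.0272). Kidins220, a scaffold that binds both p75 and Trk receptors, went from 161 ± 10.5 to 186 ± 7.12 CPM (0.21, adjusted p = 0.0216). Nradd, a homologue of p75 named after its value was seen, stood at 20.8 ± 1.34 and 20.2 ± 1.54 CPM (-0.04, adjusted p = 0.746). No difference from Ngfr was tested for any of them. None of the 3 was called without litter 1 or without litter 2, and only Tnfrsf21 was called with the length and GC trend removed.

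Of 16 intracellular partners and proteases of p75, 0 rose and 1 fell, where 7.93% and 3.51% of all rows did. The median difference was 0.01. Bex3, also known as the p75-associated cell death executor, went from 134 ± 11.6 to 117 ± 4.43 CPM (-0.19, SE 0.0476, limma adjusted p = 0.0380). That call was lost without litter 1 or litter 2 and with the trend removed.

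Trk adaptors and effectors gave 2 genes higher and 0 lower of 22, where 7.93% and 3.51% of all rows were. The median difference was 0.02. Pik3r1, the regulatory subunit of phosphoinositide 3-kinase, went from 93.1 ± 9.72 to 116 ± 10.7 CPM (0.32, SE 0.0474, limma adjusted p = 0.00726), and Sos1, an activator of Ras, from 61.6 ± 6.10 to 71.6 ± 9.92 CPM (0.21, adjusted p = 0.0361). Genes that cut proneurotrophins or control the cutting gave 2 higher and 0 lower of 9, with a median of 0.08. They were Pcsk5, a proprotein convertase (52.4 ± 5.98 to 66.3 ± 1.74 CPM, 0.34, adjusted p = 0.0162), and Mmp2, a matrix metalloprotease (148 ± 13.1 to 176 ± 19.2 CPM, 0.24, adjusted p = 0.0110). With the length and GC trend removed, Sos1 (0.07, adjusted p = 0.415) and Pcsk5 (0.18, adjusted p = 0.104) were no longer called. Without litter 1 Sos1, Pcsk5 and Mmp2 were not called (adjusted p = 0.142, 0.0737 and 0.0885), nor was Sos1 without litter 3 (0.0565), while Pik3r1 was called in each of these fits. Genes that respond to neurotrophin signals and other stimuli, such as Egr1 and Fos, gave 0 called of 6, with a median of -0.10 and differences from -0.24 to 0.01.

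**Figure D3:**
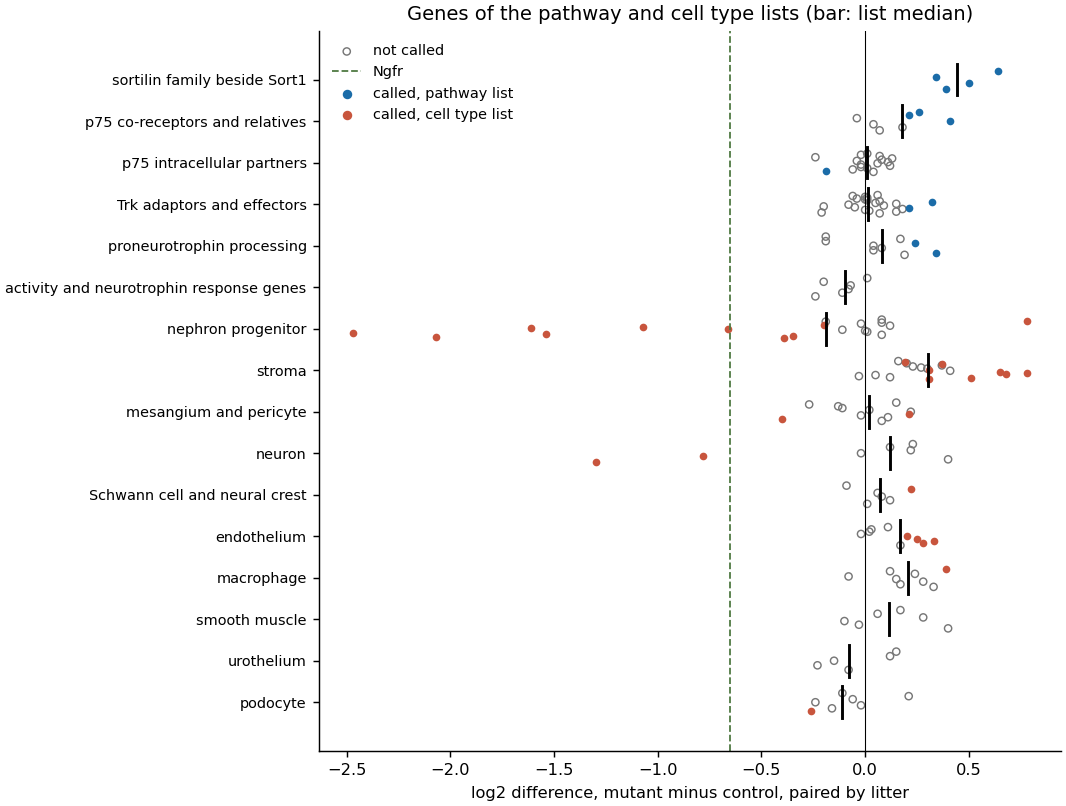
Paired log2 differences, mutant minus control, of each tested gene in 6 pathway and 10 cell type lists; filled points passed an adjusted p of 0.05 (limma), black bars are list medians and the dashed line is Ngfr. All 4 relatives of Sort1 lie right of 0, and nephron progenitor genes such as Meox2 (-2.47) and Cited1 (-2.07), and the neuronal genes Elavl4 (-1.30) and Nefl (-0.78), lie left of the line for Ngfr. Nefl reached the 1 CPM needed for testing in its control libraries only.

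Markers of the cell types that a whole kidney holds were read beside Ngfr. These lists too were chosen with earlier results of these libraries known, and nothing is claimed for them as sets. In RNA from whole tissue, fewer cells of a type and less RNA per cell cannot be told apart. Of 19 nephron progenitor markers 9 fell and 1 rose, where 3.51% and 7.93% of all rows did, with a median of -0.19, and their summed level was 1621 to 1647 CPM in control and 1365 to 1404 CPM in mutant libraries. Cited1 went from 47.5 ± 8.73 to 10.9 ± 1.87 CPM and Meox2 from 12 ± 1.21 to 1.77 ± 0.309 CPM, with limma adjusted p of 1.89e-05 and 0.000190. Six2 itself, whose sequence drives the transgene, went from 50.6 ± 7.95 to 38.6 ± 6.68 CPM (-0.39, adjusted p = 0.00626). Not every progenitor marker was lower: 7 of the 19 had differences above 0, and Fgf20, a growth factor of these cells, went from 1.79 ± 0.10 to 3.43 ± 0.0579 CPM (0.78, adjusted p = 0.0108). Much of the lower sum was Capn6, at 286 ± 6.89 and 136 ± 6.51 CPM (both genes named after their values were seen). With genotype alone 5 progenitor markers were called lower and 1 higher, and without litter 1 these were 7 and 0.

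Of 18 stromal markers 8 rose and 0 fell, where 7.93% of all rows rose, with a median of 0.31 and sums of 3867 to 4193 CPM in control and 4635 to 5235 CPM in mutant libraries. Pdgfra, a receptor of interstitial mesenchyme, went from 195 ± 18 to 278 ± 19.3 CPM (0.51, limma adjusted p = 0.000946). The number of stromal markers called higher was 3 with genotype alone, 5 with the length and GC trend removed, and 5, 13 and 12 without litters 1, 2 and 3. Endothelial markers gave 4 higher and 0 lower of 9, where 7.93% and 3.51% of all rows were. Their median was 0.17, with sums of 930 to 948 CPM in control and 1033 to 1058 CPM in mutant libraries. Of these markers 0 were called with genotype alone and 1 without litter 1. Mesangial and pericyte markers gave 1 higher and 1 lower of 11, where 7.93% and 3.51% of all rows were. Their median was 0.02, with sums of 1029 to 1105 CPM in control and 1014 to 1091 CPM in mutant libraries. Both of these calls were lost with genotype alone, without litter 1 and with the trend removed. The part of progenitor and stromal cells in the difference of Ngfr was not tested.

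For nerve tissue, 7 of 18 listed neuronal markers were tested. Their sums were 46.3 to 54.6 CPM in control and 50.0 to 52.0 CPM in mutant libraries. They gave 0 higher and 2 lower (1 with genotype alone), where 7.93% and 3.51% of all rows were, with a median of 0.12. The 2 lower genes were Elavl4, an RNA-binding protein of neurons, and Nefl, the neurofilament light chain. Elavl4 had 9.04, 9.13 and 6.33 CPM in control and 4.26, 2.28 and 2.66 CPM in mutant libraries (-1.30, SE 0.16, limma adjusted p = 0.00365 paired and 0.0302 with genotype alone). Nefl went from 1.31 ± 0.0672 to 0.568 ± 0.173 CPM (-0.78, adjusted p = 0.0315). Nefl reached the 1 CPM needed for testing in its control libraries only, so it was tested through the group where it was higher. With at least 1 CPM required in all 6 libraries, 4 neuronal markers were tested and 1 was called lower. The larger part of the neuronal sum did not follow: Uchl1 stood at 28.0 ± 4.02 and 30.4 ± 3.22 CPM, and Stmn2 at 6.98 ± 0.696 and 9.37 ± 0.884 CPM (0.40, adjusted p = 0.0661), both named after their values were seen.

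Of 13 Schwann cell and neural crest markers, 6 were tested. They gave 1 higher and 0 lower, where 7.93% and 3.51% of all rows were, with a median of 0.07. Their sums were 163 to 176 CPM in control and 180 to 184 CPM in mutant libraries. Pmp22 went from 65.7 ± 2.51 to 77.0 ± 6.51 CPM (0.22, limma adjusted p = 0.0437), a call that was lost under both other scalings, with genotype alone, and without litter 1 or litter 2. Sox10, Th and Tubb3, which define glia and neurons more sharply, were not analysed here. The part of nerve cells in the Ngfr difference was not tested.

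The 4 other lists had few calls, where 7.93% of all rows were called higher and 3.51% lower. Macrophage markers gave 1 higher (Mrc1) and 0 lower of 8, with a median of 0.21 and sums of 114 to 121 CPM in control and 120 to 150 CPM in mutant libraries. Podocyte markers gave 0 higher and 1 lower (Nphs1, -0.26, limma adjusted p = 0.0286) of 7, with a median of -0.11 and sums of 863 to 1007 and 820 to 900 CPM. Smooth muscle (158 to 213 and 182 to 230 CPM, 6 tested) and urothelial markers (17.9 to 34.3 and 20.5 to 29.6 CPM, 5 tested) had no gene called by limma, with medians of 0.12 and -0.08. The calls of Mrc1 and Nphs1 were lost with genotype alone and without litter 1, and that of Mrc1 also with the trend removed.

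The genes whose pattern over the 6 libraries came nearest to that of Ngfr were C1ql1, Espn, Rem2, Doc2b and Plekhg6. Nearness was the root mean square distance between log2(CPM + 0.5) values centred on each gene's mean, over 13695 rows, and was 0.063, 0.068, 0.089, 0.092 and 0.094 for these 5 against a median of 0.411 for all rows. Espn, an actin-bundling protein of hair cells and microvilli, had 24.3, 37.0 and 35.7 CPM in control and 15.6, 23 and 22 CPM in mutant libraries. Its litter 1 libraries were the lowest of each group, as for Ngfr. C1ql1, a secreted relative of complement C1q, had 1.94, 2.77 and 2.75 CPM in control and 1.14, 1.88 and 1.56 CPM in mutant libraries. Rem2 and Doc2b, at 6.01 ± 0.787 and 6.11 ± 0.787 CPM in control and 3.96 ± 1.08 and 4.29 ± 0.831 CPM in mutant kidneys, are known from excitable cells, Rem2 as a small GTPase acting on calcium channels and Doc2b as a calcium sensor of vesicle release. Plekhg6 went from 9.37 ± 1.90 to 6.37 ± 1.26 CPM. The list is a description of likeness in level over 6 libraries, picked from all rows.

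**Figure D4:**
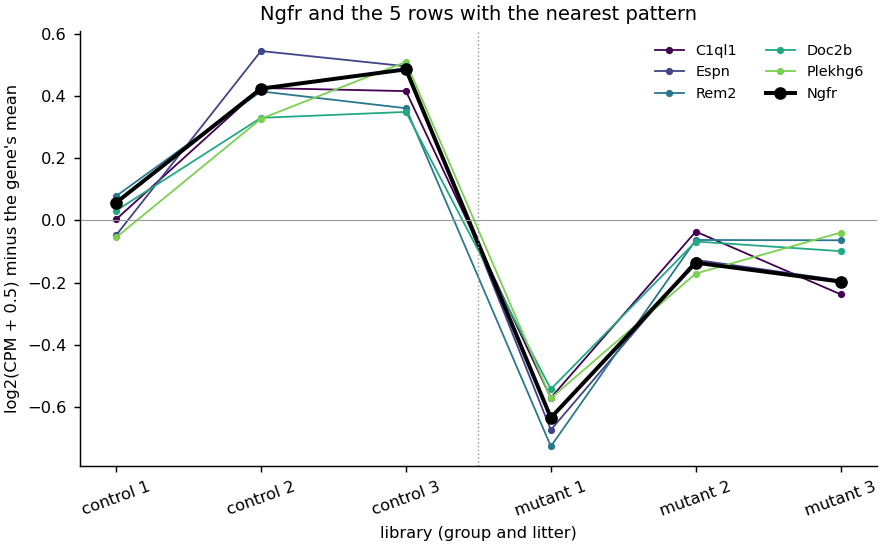
Centred log2(CPM + 0.5) of Ngfr (thick black line) and the 5 nearest rows in each library, control libraries left and mutant libraries right of the dotted line; the lines only join the values of a gene. The 6 genes are low together in the litter 1 library of each group and lower in the mutant than in the control of every litter. The 5 rows were picked for this likeness to Ngfr.

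The comparison rests on libraries of 43804667 to 54913325 reads. These totals were worked out from the CPM values, as those that make every row a whole number of reads. On these totals, 1 CPM stands for 43.8 to 54.9 reads. The labels name litters but not sexes or how many embryos gave a library. The paired p-values rest on how far the mutant-minus-control difference varied from litter to litter, moderated by limma over all rows. Those with genotype alone rest on the spread between the libraries of a group.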

How the data were processed

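The authors deposited 1 table of CPM values (reads scaled to the library total) for 6 libraries made with the Illumina TruSeq RNA kit, per the labels' protocols. TopHat2 2.0.9, Picard, SAMtools and build NCBIM37 are named per the submitters' processing notes; the counting program, annotation and strand setting are not given in the sources used here. Rows carry Ensembl identifiers, which were matched to GENCODE M21 (GRCm38) for symbols, positions and lengths: 13695 of 13965 rows matched, and 526 join several identifiers.

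The model was limma 3.58.1 (R 4.3.3), with litter as a block and a mean-variance trend, fitted to log2(CPM + 0.5). It took in 13766 rows, those reaching 1 CPM in 3 or more libraries. A row was called at a Benjamini-Hochberg adjusted p below 0.05 over these rows. The script was tested on simulated data in which every row had the same litter and library spread. With the block, 93% of 1.5-fold and 99% of 2-fold changes were recovered, and 6.34% of calls were false. Without it, 82% and 99% were recovered and 0% of calls were false. The real rows can differ in spread. The labels state the litters, and deviations from group means correlated at 0.619, 0.446 and 0.312 within litters and at -0.514 to 0.172 otherwise, across genes. Such deviations sum to 0 within a group, so positive values within litters push the others down. The gap between the values is therefore partly built in. Length and GC trends were removed per library with splines of 5 degrees of freedom.

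Members and lists were chosen with earlier results of these data known. Genes named are the members, Ntf5, up to 4 called genes per list by size of difference, and the 5 rows nearest to Ngfr; others are marked where named, and a few genes of the lists are not reported here by name. Of the cell type lists, the counts and sums of all are given and the values of a few named genes. Alternatives were genotype alone, other scalings, pseudocounts and filters, and leaving out litters or libraries.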

Additional observations from a re-analysis of the deposited data

How the results depend on the processing

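The log2 difference of Ngfr kept its sign under all 17 alternatives (-0.78 to -0.49) and was called in 11, with adjusted p from 8.94e-05 to 0.384 by limma. Leaving out 1 litter with the block kept gave -0.69 to -0.62 and a call each time, whereas without the replicate block it was -0.65 (adjusted p = 0.129), and with single libraries left out of that fit it was called in 1 of 6. Sort1 was 0.23 without the block and 0.07 with the length and GC trend removed, and 0.15 to 0.31 with a litter or library left out. Ntf3 stayed between -0.19 and -0.10 and was not called in any of its 17 alternatives. Ntrk2 ranged from 0.12 to 0.40 with a litter or library left out. Ntrk3 ranged from -0.16 to 0.06 there: it was 0.06 without litter 1, and 0.06, 0.06 and 0.01 in the fit with no block without mutant 1, control 2 or mutant 3.

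Without the block 50 rows were called higher and 27 lower (limma; 1551 rows had an unadjusted p below 0.05, 4022 with the block), among them 0 members and 0 pathway genes in either direction. With the length and GC trend removed, 441 rows were called higher and 450 lower, with 0 members higher and 1 lower, and 5 pathway genes higher and 0 lower. With a litter or library left out, members called higher numbered 0 to 2 and lower 0 to 1, rows called higher 7 to 1506 and lower 13 to 842, pathway genes called higher 0 to 12 and lower 0 to 1; without litter 1 the rows called were 304 and 77 and the pathway genes 2 and 0, and without litter 3 the rows called lower were 842. Scaling by a trimmed mean or median ratios, pseudocounts of 0.1 or 1 and other filters on low values ended no call of a member. Per kilobase of the longest transcript in place of all exons, control levels were 4.43 for Ntf3, 0.895 for Ntrk2, 0.257 for Ntrk3 and 17.3 for Sort1. The planned count models (edgeR, DESeq2) and edgeR's own TMM factors were not run, because the table leaves out low rows and the reads recovered from CPM could not be checked there; an unweighted trimmed mean took the place of TMM. Values near 1 CPM (Ntf5) rest on 40 to 101 recovered reads.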
